A study of Mus musculus with 20 samples.

Results

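Transcript levels of an HPRT knockdown line and a control line of mouse embryonic stem cells were compared on days 1, 2, 3 and 4 of neuronal differentiation. The comparison used 8 of the 20 RNA-seq libraries of the series, those labelled with these 4 days, 4 per line. Both lines came from ESD3, an embryonic stem cell line of mouse strain 129s2/SvPas that was kept on primary mouse embryo fibroblast feeder cells, and both had been infected with a retrovirus (a lentivirus in the study's methods) carrying a short hairpin RNA. The hairpin was directed against luciferase, which the cells do not have, in the control line, and against HPRT in the HPRT knockdown line. Embryonic stem cells of either line were grown into spherical neural masses, free-floating aggregates of neural precursors, and these were differentiated toward dopaminergic neurons. Each line was made once, and each line gave 1 library per day. The RNAs of a time point and line had been pooled according to the methods, so a difference between the lines cannot be told apart from a difference between the infected populations.

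Hypoxanthine-guanine phosphoribosyltransferase (HPRT) recycles hypoxanthine and guanine into purine nucleotides, and its loss in humans causes Lesch-Nyhan disease, a disorder of movement and behavior with little visible damage to the brain. Neural precursors take their positional identity from secreted signals. Sonic hedgehog, made by the notochord and floor plate, induces ventral transcription factors such as NKX2-1, NKX2-2 and OLIG2, whereas BMP and Wnt ligands of the roof plate favor dorsal factors such as PAX3 and PAX7. Early in such cultures the transcripts of pluripotent cells normally fade while those of precursors, neurons and glia appear.

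The value of a gene on a day was the log2 ratio of the knockdown library over the control library of that day, and its error is the standard deviation (SD) over the 4 days (n = 4 days). A gene was called different when limma, a moderated test fitted to the ratios of all genes at once, gave a Benjamini-Hochberg adjusted p at or below 0.05 over 13254 genes. These genes passed a filter set at a log2 normalized count of 4, and some values are also given for the 8038 well expressed genes, those that reached a log2 count of 8. The deposited values give ratios and no levels, and values at or below 1 normalized count had been raised to that level, so that large ratios of weakly expressed genes are understated. Read totals were not used here, so depth was unknown and no counting interval is given. The knockdown library of day 1 stood apart from those of the other days for pluripotency transcripts and that of day 3 for oligodendrocyte transcripts. The control library of day 4 stood apart for muscle transcripts, and values with and without these days are given beside the results. In pooled cell masses fewer cells of a type and less RNA per cell cannot be told apart.

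Hprt itself was examined first. Hprt (Gene ID 15452, chromosome X, 50341314 to 50374836, plus strand of the NCBIM37 mouse genome) had ratios of -2.70, -3.90, -4.56 and -4.94 on days 1 to 4. The knockdown library was below the control library on each of the 4 days, and it held 15.3%, 6.71%, 4.23% and 3.25% of the control level in that order. The mean was -4.03 ± 0.98, or 6.13% of the control (limma adjusted p = 0.00677). An exact two-sided sign-flip permutation test over the 4 days gave p = 0.125, the smallest that 4 days allow. The call remained without any one day, with a highest adjusted p of 0.0408 without day 2.

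Over all genes, 5578 of 13254 (42.1%) were called, 2827 higher (21.3%) and 2751 lower (20.8%) in the knockdown line. At least 1.5-fold differences were held by 1910 of the genes called higher and 1724 of those called lower. The count was sensitive to single days, with 4057 genes without day 1, 1946 without day 2, 2573 without day 3 and 3653 without day 4. Each such fit had 1 day fewer and less power, here and below. A lost call therefore does not by itself show that the omitted day drove a gene. For 61.7% of the genes the 4 ratios shared a sign, above 0 for 4034 genes and below 0 for 4138. The level was at least 1.5-fold higher on each of the 4 days for 1003 genes (7.57%) and at least 1.5-fold lower on each day for 815 (6.15%). Day by day, with 1 library per line and therefore no test, 45.3%, 34.0%, 34.9% and 34.6% of the genes differed at least 1.5-fold on days 1 to 4. The SD of the ratio across genes was 1.12 on day 1 and 0.83 on day 4.

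Regulators of the ventral and anterior neural tube stood among the genes highest in the knockdown line. Shh (Gene ID 20423, chromosome 5, 28783355 to 28793641, minus strand), which encodes the sonic hedgehog ligand, had ratios of 3.59, 4.44, 3.61 and 5.83 on days 1 to 4. All 4 days lay above 3.5, and the mean was 4.37 ± 1.05, a 20.6-fold difference (limma adjusted p = 0.00673). Six3 (Gene ID 20473, chromosome 17, 86012948 to 86031153, plus strand), a factor of the forebrain and eye field, had ratios of 3.53, 4.27, 3.05 and 3.09 on days 1 to 4, with a mean of 3.48 ± 0.57 (adjusted p = 0.00627). Its relative Six6 stood at 2.92 ± 0.56 (adjusted p = 0.00627), with every day between 2.42 and 3.66. Foxa1, a forkhead factor of the floor plate and of endoderm, had its lowest ratio on day 1 (1.91) and its highest on day 4 (4.13) and averaged 2.89 ± 0.95 (adjusted p = 0.00894).

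Of the 24 genes listed for the ventral neural tube, 21 were tested, and 14 were called higher and 1 lower, against 21.3% and 20.8% of all genes. The median of their mean ratios was 2.14, beside 0.00048 for all genes tested (3.39 over the well expressed members), and by day the list median was 1.97, 1.82, 1.76 and 2.58 on days 1 to 4. The highest member was Rax, the retina and hypothalamus homeobox gene, at 5.16, 5.22, 4.94 and 6.28 on days 1 to 4. Its mean was 5.40 ± 0.60 (limma adjusted p = 0.00525), although its values in overlapping tables disagreed by up to 0.94. Nkx2-1 (Gene ID 21869, chromosome 12, 57632922 to 57637895, minus strand), the defining factor of the ventral forebrain, followed at 3.63, 3.27, 4.33 and 6.68 on days 1 to 4 and a mean of 4.48 ± 1.53 (adjusted p = 0.0094). Nkx2-2 and Olig2, which mark ventral progenitors of the spinal cord and later oligodendrocyte precursors, stood at 2.54 ± 1.05 and 2.42 ± 0.62. Nkx6-1, another ventral progenitor factor, stood at 2.12 ± 1.09. The 1 member called lower was Dbx1, a factor of intermediate progenitors, at -2.26 ± 1.70 (adjusted p = 0.0483). The counts called higher in this list were 11, 9, 11 and 13 without days 1, 2, 3 and 4. Among the 10 ventral genes named here and in the preceding paragraph, 9, 8, 8 and 9 kept their call without days 1, 2, 3 and 4 in turn, with adjusted p of up to 0.126 for those that did not. Nkx6-1 and Dbx1 were named after their values were seen.

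Several dorsal factors were lower in the knockdown line. Pax7 (Gene ID 18509, chromosome 4, 139292977 to 139389445, minus strand), a dorsal neural tube and muscle precursor gene, had ratios of -6.85, -7.07, -7.64 and -6.52 on days 1 to 4. It was the lowest of all genes tested, at -7.02 ± 0.47 (limma adjusted p = 0.00134), or 130-fold lower. Its tables disagreed by up to 0.19, far less than the ratio. Pax3 (Gene ID 18505, chromosome 1, 78097842 to 78193709, minus strand) stood at -2.42, -4.13, -3.10 and -4.80 on days 1 to 4, with a mean of -3.61 ± 1.06 (adjusted p = 0.00804). Tcfap2b (Gene ID 21419, chromosome 1, 19198995 to 19228815, plus strand), the AP-2 beta factor of neural crest and dorsal interneurons, had a ratio of -2.46 on day 1 and ratios between -6.69 and -5.32 on the later days, and averaged -5.23 ± 1.94 (adjusted p = 0.0107). Olig3, a factor of the dorsal progenitor domains, averaged -4.02 ± 2.73 (adjusted p = 0.0369).

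Of 21 tested genes of the dorsal neural tube and neural crest, 9 were called lower and 4 higher (42.9% and 19% against 20.8% and 21.3% of all genes). Their median was -0.94. Zic5 and Zic2, zinc finger factors of the dorsal midline, were among the lower members at -1.93 ± 0.67 and -1.58 ± 0.46. The 4 higher members were Lmx1a at 2.77 ± 1.13, Dbx2 at 1.78 ± 1.03, Bmp4 at 1.27 ± 0.71 and Msx1 at 0.68 ± 0.27. Lmx1a also marks floor plate cells of the midbrain and was in both lists, and Bmp4 encodes a roof plate ligand. Dbx2, Bmp4 and Msx1 were named after their values were seen. The members called lower numbered 6, 5, 7 and 7 without days 1, 2, 3 and 4, and those called higher 3, 0, 2 and 3 without days 1, 2, 3 and 4. Of the 10 dorsal genes named, 8, 5, 8 and 8 kept their call without days 1, 2, 3 and 4 in turn, with an adjusted p of up to 0.123 otherwise.

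Of 14 tested genes of the hedgehog pathway, 3 were called higher and 4 lower, shares near background (21.4% and 28.6% against 21.3% and 20.8% of all genes). The list median was -0.30, and -0.055 without day 1 and -0.11 without day 3. Beside Shh, the related ligand Dhh was higher at 1.87 ± 0.71 and Ptch1, the receptor that the pathway itself induces, at 0.98 ± 0.39 (limma adjusted p = 0.0141). Ptch1 had ratios of 0.49, 1.10, 0.92 and 1.42 on days 1 to 4. Gli1, the other common readout of the pathway, had ratios of -1.35, 0.13, -1.11 and 0.89 on days 1 to 4 and was not called (adjusted p = 0.513). The co-receptors Boc and Gas1 were lower at -2.10 ± 0.24 and -1.40 ± 0.54, as were the transcription factors Gli2 at -1.30 ± 0.26 and Gli3 at -1.13 ± 0.25. Of these 7 called genes 7, 5, 6 and 7 kept their call without days 1, 2, 3 and 4 in turn, the highest adjusted p otherwise being 0.0605. Ptch1, Gli1 and Gli3 were named after their values were seen.

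**Figure D1:**
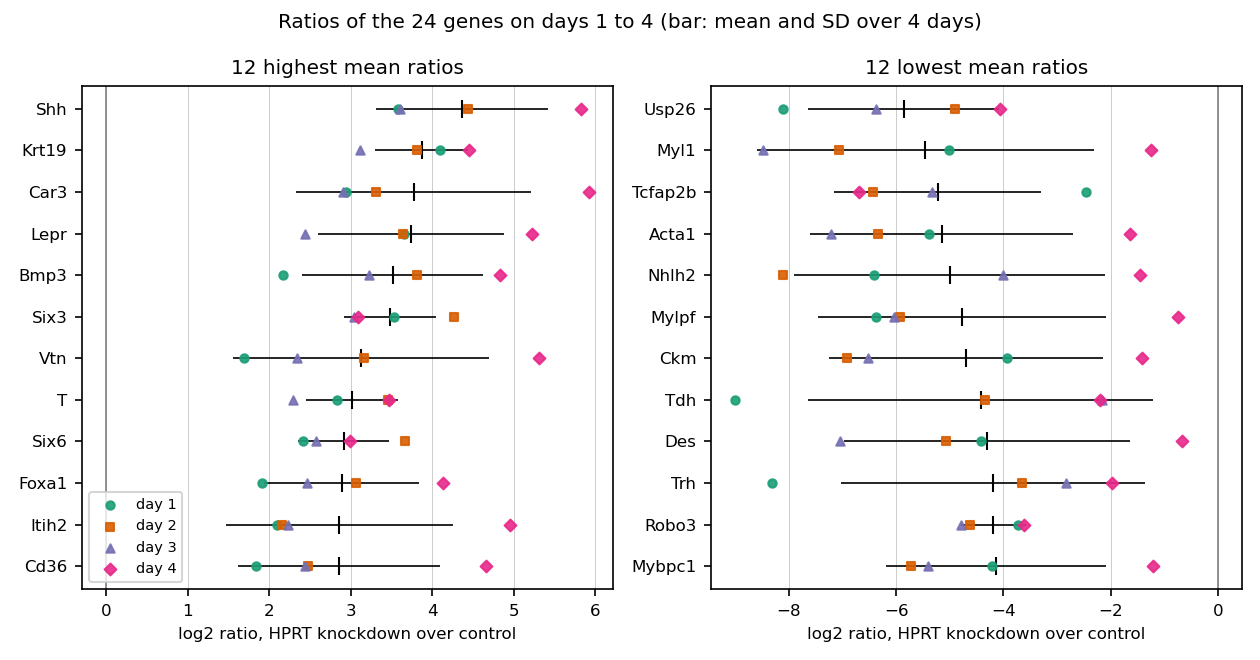
Log2 ratio of the HPRT knockdown library over the control library on each of days 1 to 4 (colored symbols) for the 12 genes with the highest and the 12 with the lowest mean ratio among called genes whose tables agreed, with the mean and SD over 4 days in black. The same sign on all 4 days was a condition of the choice, so the highest genes have only positive and the lowest only negative ratios. The muscle genes (Myl1, Acta1, Mylpf, Ckm, Des and Mybpc1) lie nearest to 0 on day 4.

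Among the other highest genes, Krt19 (Gene ID 16669, chromosome 11, 100002124 to 100009979, minus strand), a keratin of simple epithelia, had ratios of 4.10, 3.82, 3.12 and 4.45 on days 1 to 4. Its mean was 3.87 ± 0.57 (limma adjusted p = 0.00626). Car3, a carbonic anhydrase, averaged 3.77 ± 1.45, with 5.92 on day 4 and ratios between 2.91 and 3.31 on the other days. Lepr, the leptin receptor, stood at 3.74 ± 1.14, and Bmp3, a BMP family ligand that opposes other BMPs, at 3.51 ± 1.11. T (brachyury), a factor of primitive streak and notochord, had ratios of 2.84, 3.45, 2.30 and 3.47 on days 1 to 4 and a mean of 3.01 ± 0.56 (adjusted p = 0.00627). Vtn (vitronectin) stood at 3.13 ± 1.57, Itih2 at 2.86 ± 1.39 and Cd36, a fatty acid receptor, at 2.86 ± 1.24. Of these 8 genes 8, 5, 6 and 8 kept their call without days 1, 2, 3 and 4 in turn, with an adjusted p of up to 0.07 otherwise.

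Pluripotency transcripts were lower in the knockdown line, most of all on day 1. Of 24 tested genes of the naive and pluripotent state, 10 were called lower and 1 higher. These were 41.7% and 4.17%, against 20.8% and 21.3% of all genes. The median of the mean ratios was -3.21. The list median was -7.19, -2.85, -1.59 and -1.19 on days 1 to 4, with the widest gap on day 1 and the narrowest on day 4, and on day 0 it had been -0.89. Without day 1 the median was -1.94, and the counts called lower were 7, 0, 2 and 5 without days 1, 2, 3 and 4. Without day 2 no member was called lower, although the median was then -3.22.

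Tdh (Gene ID 58865, chromosome 14, 64111184 to 64127929, minus strand), a threonine dehydrogenase of mouse embryonic stem cells, had ratios of -9.004, -4.34, -2.15 and -2.20 on days 1 to 4. It averaged -4.42 ± 3.22 and was just inside the threshold (limma adjusted p = 0.0437). Nanog (Gene ID 71950, chromosome 6, 122657507 to 122664651, plus strand), a core pluripotency factor, had ratios of -6.15, -3.93, -1.28 and -1.497 on days 1 to 4, with a mean of -3.22 ± 2.30 (adjusted p = 0.0418) and tables that disagreed by up to 0.28. Pou5f1 (Gene ID 18999, chromosome 17, 35642982 to 35647721, plus strand), which encodes OCT4, had ratios of -6.83, -3.97, -1.06 and -1.30 on days 1 to 4 and was not called (mean -3.29 ± 2.70, adjusted p = 0.059). Tdgf1 (a Nodal co-receptor), Lefty2 (a Nodal antagonist), Dppa3 and Dppa4 averaged -4.25 ± 3.14, -4.14 ± 3.04, -3.92 ± 2.54 and -3.30 ± 2.49. The 1 member called higher was Tbx3, a T-box factor also expressed in ventral hypothalamus, at 1.99 ± 0.50, named after its values were seen. Of these 7 called genes 6, 1, 1 and 2 kept their call without days 1, 2, 3 and 4 in turn, and the adjusted p of the others reached 0.133.

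The 2 lines did not change alike from day to day. For the steps in the text, tables of consecutive days were joined within a line, with each library centered on its median. Control day 4 was instead placed by way of the knockdown line and the day 4 ratio. Over the pluripotency list the control line moved little. Its median steps were -0.28, 0.47 and -0.41 on the log2 scale between days 1 and 2, 2 and 3, and 3 and 4. The knockdown line stepped up by 3.12, 1.84 and 0.38. Relative to the control line on day 1, the knockdown median was -7.12 on day 1 and -1.06 on day 4. There was 1 library per point, so these steps have no test. The control table of days 3 and 4 stood at odds with the others, and its loop closed within 0.1 for 79.4% of the genes, against 97.4% and 98.3% for the earlier days.

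**Figure D2:**
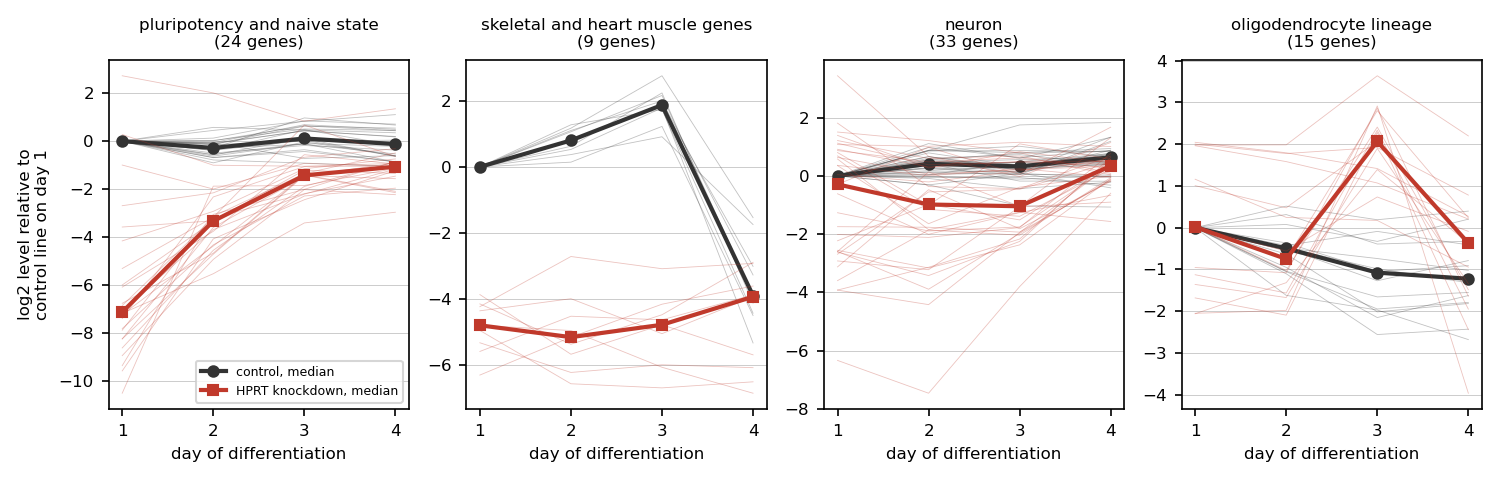
Log2 level on days 1 to 4 relative to the control line on day 1, joined across tables that were normalized separately, for single genes (thin lines) and their median (thick lines) in the control (black circles) and HPRT knockdown line (red squares). The pluripotency median of the knockdown line lay at -7.12 on day 1 and at -1.06 on day 4. The 9 muscle genes were chosen for the size of their ratios. Their median in the control line lay at 1.87 on day 3 and -3.89 on day 4. Neuron medians were nearest to the control on days 1 and 4. The oligodendrocyte median of the knockdown line was high only on day 3 of the 4 days.

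Transcripts of the primed epiblast, the later pluripotent state of the embryo after implantation, were lower as well. Of 9 tested, 6 were called lower and 0 higher (66.7% and 0% against 20.8% and 21.3% of all genes). The median was -1.71, and without days 1, 2, 3 and 4 in turn 3, 3, 3 and 6 were called lower. Fgf5, the classic marker of that state, had ratios of -2.16, -1.86, -1.90 and -0.93 on days 1 to 4 and a mean of -1.71 ± 0.54 (limma adjusted p = 0.0089). Dnmt3b, a de novo DNA methyltransferase, averaged -3.02 ± 2.07 and Epcam, an adhesion protein of pluripotent and epithelial cells, -3.40 ± 2.38. Both fell short of the threshold without day 1, day 2 or day 3. Zic5, Zic2 and Pou3f1 (-0.68 ± 0.42, named after its values were seen) completed the 6 genes, of which 3, 3, 3 and 6 kept their call without days 1, 2, 3 and 4 in turn (adjusted p up to 0.124 otherwise). Nodal, the ligand that sustains this state, averaged -3.90 ± 2.81 (adjusted p = 0.0425) and lost its call without any one day.

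The muscle transcripts named here, chosen for the size of their ratios, were far lower in the knockdown line on days 1 to 3. The gap was narrower on day 4. Acta1 (Gene ID 11459, chromosome 8, 126415669 to 126418651, minus strand), skeletal alpha-actin, had ratios of -5.39, -6.34, -7.22 and -1.64 on days 1 to 4. Myl1 (Gene ID 17901, chromosome 1, 66970869 to 66991978, minus strand), a myosin light chain, had ratios of -5.02, -7.07, -8.48 and -1.25 on days 1 to 4. Mylpf, a second light chain, had ratios of -6.37, -5.93, -6.04 and -0.75 on days 1 to 4. Their means were -5.15 ± 2.46, -5.45 ± 3.14 and -4.77 ± 2.69 (limma adjusted p = 0.0163, 0.0252 and 0.0238).

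Ckm (muscle creatine kinase), Des (desmin) and Mybpc1 (a myosin binding protein) followed at -4.70 ± 2.56, -4.30 ± 2.67 and -4.13 ± 2.06, and Tnnt2 (cardiac troponin T), Myod1 (the myogenic master factor) and Actc1 (cardiac actin) at -5.35 ± 2.33, -4.45 ± 2.97 and -3.87 ± 1.81. All 9 genes were named for the size of their called ratios, so their shared direction is not separate support. Over these 9 genes the ratios lay between -8.48 and -5.40 on day 3 and between -2.65 and -0.072 on day 4. Between days 3 and 4 the steps of the control line ranged from -7.10 to -2.66, and those of the knockdown line ranged from -0.91 to 1.58. Of the 9 calls 1, 0, 2 and 9 remained without days 1, 2, 3 and 4 in turn, and the adjusted p of the others reached 0.118. The mesoderm and muscle list as a whole had 7 of 12 tested genes lower and 2 higher, T and Kdr (58.3% and 16.7% against 20.8% and 21.3% of all genes). Its median was -2.66. The counts called lower in it were 4, 1, 3 and 7 without days 1, 2, 3 and 4. Over its 2 well expressed members the median had the opposite sign, 1.15. On day 0 the list median had been 1.22.

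Neuronal transcripts were called lower more often than higher, and the gap was wider on days 2 and 3 than on days 1 and 4. Of 33 tested, 14 were called lower and 5 higher (42.4% and 15.2% against 20.8% and 21.3% of all genes). The median of the mean ratios was -0.997, and by day -0.37, -1.52, -1.33 and -0.46 on days 1 to 4. Nhlh2 (Gene ID 18072, chromosome 3, 101814068 to 101819415, plus strand), a helix-loop-helix factor of newborn neurons, had ratios of -6.41, -8.11, -4.01 and -1.45 on days 1 to 4 and averaged -4.996 ± 2.90 (limma adjusted p = 0.0257). Its relative Nhlh1 averaged -2.94 ± 1.60. Slc17a6, the vesicular transporter of glutamatergic neurons, had ratios of -2.70, -4.29, -3.07 and -0.46 on days 1 to 4 and a mean of -2.63 ± 1.60 (adjusted p = 0.0288). Cntn2 (an axonal adhesion molecule), Ina (a neurofilament subunit) and Tubb3 (neuronal beta-III tubulin) averaged -2.88 ± 2.07, -2.50 ± 1.20 and -1.60 ± 0.85.

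The neuronal genes called higher included Scg3 (a granule protein) at 0.99 ± 0.29, Rtn1 at 0.78 ± 0.43, Mtap2 (the dendritic protein MAP2) at 0.59 ± 0.32 and Ncam1 at 0.58 ± 0.15, all named after their values were seen. In the knockdown line the neuron list stepped by -0.58 between days 1 and 2 and by 1.11 between days 3 and 4, against 0.41 and 0.17 in the control line. The members called lower numbered 4, 3, 2 and 14 without days 1, 2, 3 and 4, and those called higher 4, 3, 3 and 4 without days 1, 2, 3 and 4. Among well expressed genes the list median was -0.23. Of the 10 genes named, 3, 2, 2 and 9 kept their call without days 1, 2, 3 and 4 in turn, with an adjusted p of up to 0.129 otherwise.

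The factors that drive neurogenesis were divided. Of 16 tested proneural factors, 4 were called lower and 3 higher, near the background shares of 20.8% and 21.3%, with a median of -0.48, and without days 1, 2, 3 and 4 in turn 2, 2, 2 and 3 were called lower and 1, 1, 1 and 3 higher. Neurog1 (neurogenin 1) had ratios of -5.21, -3.50, -3.35 and -0.78 on days 1 to 4 and Eomes (a factor of intermediate cortical progenitors and of endoderm) -2.53, -2.47, -2.60 and -1.92 on days 1 to 4. Their means were -3.21 ± 1.83 and -2.38 ± 0.31 (limma adjusted p = 0.0247 and 0.00626), and Sox11 and Btg2 were lower at -1.07 ± 0.37 and -0.39 ± 0.12. Prox1 was higher at 0.88 ± 0.29 (adjusted p = 0.0119), as was Tcf12 at 0.36 ± 0.18. Btg2 and Tcf12 were named after their values were seen. Of these 6 genes 3, 3, 3 and 5 kept their call without days 1, 2, 3 and 4 in turn (adjusted p up to 0.141 otherwise). Over the 7 well expressed members the list median had the opposite sign, 0.19.

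Astrocyte and radial glia transcripts had list medians above 0 on all 4 days. Of 20 tested, 14 were called higher and 1 lower (70% and 5% against 21.3% and 20.8% of all genes). The median was 1.14, with list medians of 1.01, 0.98, 1.69 and 1.20 on days 1 to 4. Ttyh1 (Gene ID 57776, chromosome 7, 4071010 to 4088308, plus strand), a membrane protein of radial glia, had ratios of 2.24, 1.72, 2.23 and 1.82 on days 1 to 4 and a mean of 2.001 ± 0.27 (limma adjusted p = 0.00627). Fgfr3, an FGF receptor of glial progenitors, had ratios of 1.56, 1.95, 2.27 and 1.65 on days 1 to 4, with a mean of 1.86 ± 0.32 (adjusted p = 0.00627). Ntsr2 and Ptprz1 (a receptor phosphatase of radial glia) stood at 1.87 ± 0.75 and 1.77 ± 0.38, and Aldh1l1, a folate enzyme used as an astrocyte marker, at 1.65 ± 0.96. The exception was Gja1 (connexin 43), called lower at -0.70 ± 0.37 and named, as was Aldoc (1.45 ± 0.54), after its value was seen. The counts called higher were 12, 11, 11 and 12 without days 1, 2, 3 and 4. Of the 7 genes named 5, 6, 5 and 6 kept their call without days 1, 2, 3 and 4 in turn, and Aldh1l1 and others reached an adjusted p of up to 0.0903.

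Neural progenitor markers showed no common direction, with 3 of 12 called higher and 2 lower (25% and 16.7% against 21.3% and 20.8% of all genes). The median was 0.15, or 0.081 without day 2. Without days 1, 2, 3 and 4 in turn 3, 1, 3 and 2 were called higher and 1, 0, 0 and 2 lower. Vim (vimentin) had ratios of 1.31, 0.97, 1.15 and 0.99 on days 1 to 4 and Nes (nestin), the usual marker of neural precursors, 1.60, 1.13, 0.38 and 1.18 on days 1 to 4. Both were called, at 1.11 ± 0.16 and 1.07 ± 0.51 (limma adjusted p = 0.00636 and 0.0184), as was Notch1 at 0.96 ± 0.33. Pax6, a factor of dorsal forebrain and spinal progenitors, had ratios of -0.61, -0.76, -0.89 and -2.44 on days 1 to 4 and averaged -1.17 ± 0.85 (adjusted p = 0.0458). Hes5, a Notch target, was lower at -0.59 ± 0.16. Of these 5 genes 4, 1, 3 and 4 kept their call without days 1, 2, 3 and 4 in turn (adjusted p up to 0.0998 otherwise). Sox2, which marks both pluripotent cells and neural precursors, had ratios of 0.18, 0.38, 0.25 and 0.0058 on days 1 to 4 and was not called (mean 0.21 ± 0.16, adjusted p = 0.148).

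Of the oligodendrocyte lineage, the early genes Nkx2-2, Olig2, Olig1, Sox8 and Cspg4 were higher throughout. Mbp, Sox10 and Gpr17, genes of later stages, were well above the control on day 3 alone among these days. Of 15 tested, 5 were called higher and 0 lower (33.3% and 0% against 21.3% and 20.8% of all genes). The 5 were Nkx2-2 at 2.54 ± 1.05, Olig2 at 2.42 ± 0.62, Olig1 at 2.37 ± 0.54, Sox8 at 2.18 ± 0.35 and Cspg4 (the NG2 proteoglycan of precursors) at 1.70 ± 0.45. Olig2 (Gene ID 50913, chromosome 16, 91225795 to 91228922, plus strand) had ratios of 1.97, 2.85, 3.06 and 1.81 on days 1 to 4, all above 1.5 (limma adjusted p = 0.00743). All 5 kept their call without any one day.

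Mbp, the myelin basic protein gene, had ratios of -1.76, -1.13, 4.42 and -0.87 on days 1 to 4, and its mean of 0.16 ± 2.86 was not called (limma adjusted p = 0.914). Sox10, which drives the lineage beyond the precursor, had ratios of -0.061, -1.53, 2.20 and -1.96 on days 1 to 4. Gpr17, a receptor of premyelinating cells, had ratios of -0.0087, -0.81, 3.11 and -0.013 on days 1 to 4. The list median was -0.061, -0.43, 3.06 and 0.46 on days 1 to 4, and over the 3 other days it was -0.28. In the knockdown line the list stepped up by 2.71 between days 2 and 3 and changed by -2.40 between days 3 and 4, with -0.62 and -0.014 in the control line. The day 3 values come from 1 knockdown library, and the part of that library in them was not tested.

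**Figure D3:**
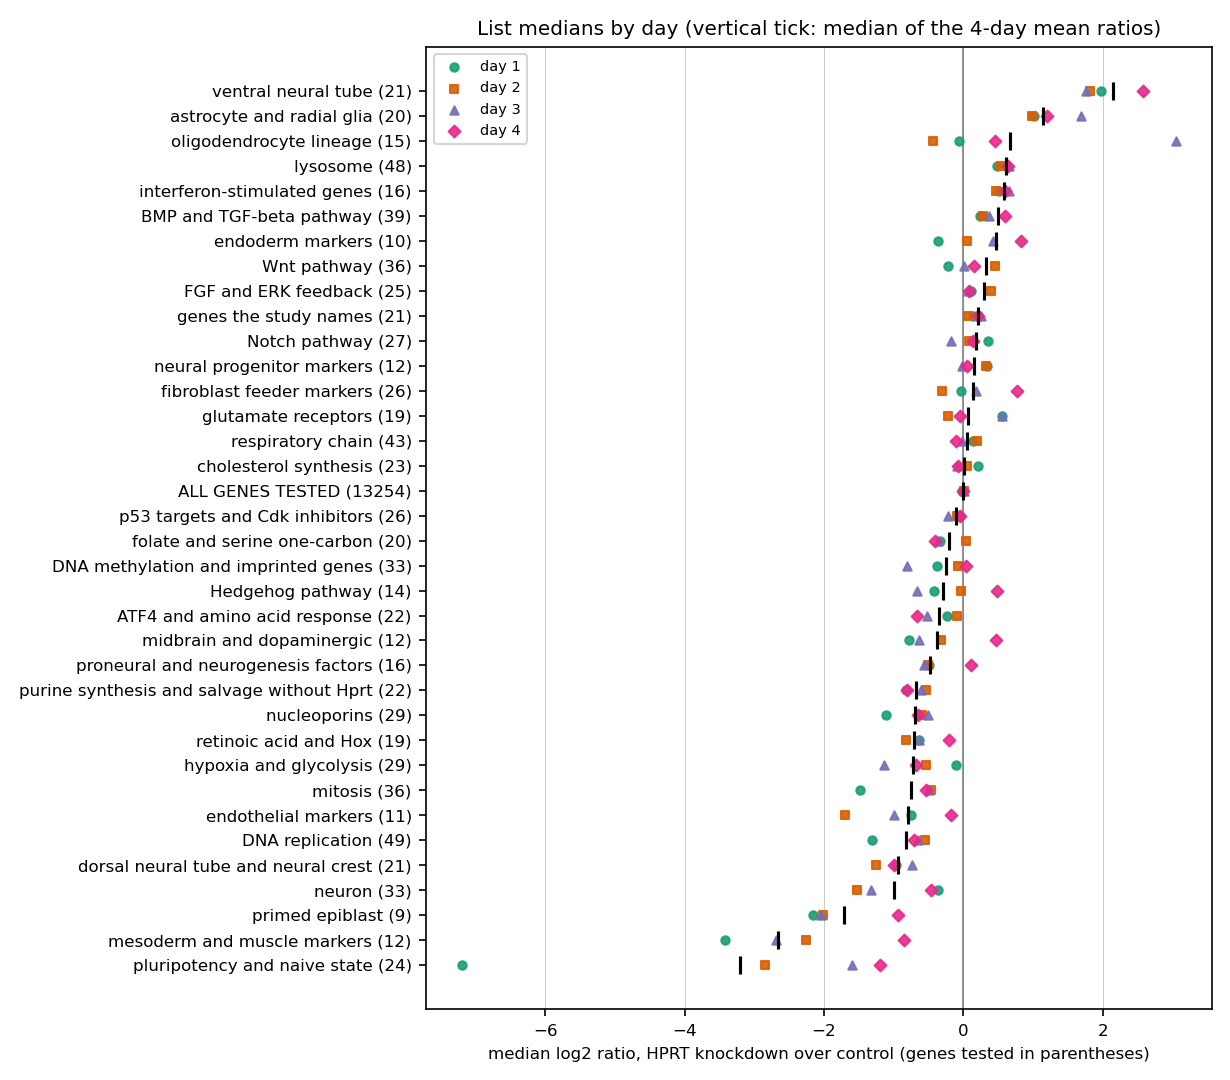
Median log2 ratio of the tested members of each gene list on days 1 to 4 (colored symbols), with the median of the 4-day mean ratios as a black tick, ordered by that median and beside all 13254 genes. The ventral neural tube list lies highest at 2.14 and the pluripotency list lowest at -3.21, with its 4 days spread from -7.19 to -1.19.

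Purine genes other than Hprt were examined because HPRT feeds the same nucleotide pool. Of 22 tested, 15 were called lower and 1 higher, against 20.8% and 21.3% of all genes, with a median of -0.68. Ppat (Gene ID 231327, chromosome 5, 77342274 to 77380603, minus strand), the amidotransferase that opens de novo purine synthesis, had ratios of -1.97, -1.04, -0.97 and -1.13 on days 1 to 4 and a mean of -1.28 ± 0.47 (limma adjusted p = 0.0117). Prps1, which makes the phosphoribosyl pyrophosphate used by HPRT and PPAT alike, had ratios of -1.11, -0.91, -1.28 and -1.34 on days 1 to 4, with a mean of -1.16 ± 0.19 (adjusted p = 0.00665). Gart and Adsl, further enzymes of the pathway, averaged -1.19 ± 0.23 and -1.20 ± 0.26, and Adssl1, an adenylosuccinate synthase, -1.46 ± 0.53. Adsl lies on chromosome 15, whose genes had a median ratio of -0.38. Aprt, the salvage enzyme for adenine, and Impdh2, which commits inosine monophosphate to guanine nucleotides, were lower at -0.63 ± 0.26 and -0.79 ± 0.26. The 1 gene called higher was Nt5e, the ecto-nucleotidase CD73 that releases adenosine, at 1.01 ± 0.58. Aprt, Impdh2 and Nt5e were named after their values were seen. The list medians were -0.82, -0.53, -0.61 and -0.82 on days 1 to 4, and the counts called lower were 14, 8, 11 and 14 without days 1, 2, 3 and 4. Of the 8 genes named, 7, 4, 6 and 8 kept their call without days 1, 2, 3 and 4 in turn (adjusted p up to 0.0753 otherwise).

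Purine synthesis draws on one-carbon units, and the folate list was lower in part. Of 20 tested, 8 were called lower and 2 higher (40% and 10% against 20.8% and 21.3% of all genes), with a median of -0.20. Without days 1, 2, 3 and 4 in turn 7, 4, 3 and 4 were called lower and 1, 0, 0 and 1 higher. Shmt1, which moves one-carbon units from serine to folate, had ratios of -2.20, -1.16, -0.82 and -1.08 on days 1 to 4, with a mean of -1.31 ± 0.61 (limma adjusted p = 0.017). The mitochondrial enzymes Mthfd1l and Mthfd2 averaged -1.05 ± 0.15 and -0.91 ± 0.29. The members called higher included Aldh1l1, also in the astrocyte list. Of these 4 genes 3, 2, 3 and 4 kept their call without days 1, 2, 3 and 4 in turn (adjusted p up to 0.0834 otherwise).

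Most genes of DNA replication were lower. Of 49 tested, 42 were called lower and none higher, against 20.8% and 21.3% of all genes, and the median was -0.82. The list median was -1.31, -0.55, -0.64 and -0.71 on days 1 to 4, lowest on day 1, and -1.01 on day 0. Orc1, the largest subunit of the origin recognition complex, had ratios of -2.98, -1.90, -1.33 and -1.17 on days 1 to 4. Its mean was -1.84 ± 0.82 (limma adjusted p = 0.0149), although its tables disagreed by up to 1.04. Pole2, a subunit of DNA polymerase epsilon, had ratios of -1.33, -1.22, -1.33 and -1.72 on days 1 to 4, with a mean of -1.40 ± 0.22 (adjusted p = 0.00627). Mcm3, a subunit of the replicative helicase, and Mcm10, which activates it, averaged -1.26 ± 0.44 and -1.35 ± 0.71, with day 1 the lowest day of both, and Dna2, a nuclease of lagging strand synthesis, averaged -1.504 ± 0.67. The counts called lower were 38, 14, 21 and 23 without days 1, 2, 3 and 4. Of the 5 genes named 5, 2, 4 and 4 kept their call without days 1, 2, 3 and 4 in turn (adjusted p up to 0.0615 otherwise).

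Mitotic genes also had their lowest list median on day 1. Of 36 tested, 25 were called lower and none higher (69.4% and 0% against 20.8% and 21.3% of all genes). The median was -0.75, with list medians of -1.49, -0.46, -0.50 and -0.53 on days 1 to 4. Pttg1 (securin) had ratios of -1.63, -1.04, -1.49 and -2.44 on days 1 to 4 and Espl1 (Gene ID 105988, chromosome 15, 102126724 to 102154787, plus strand), the separase that securin holds in check, -2.22, -1.09, -0.96 and -1.45 on days 1 to 4. Both were called, at -1.65 ± 0.59 and -1.43 ± 0.57 (limma adjusted p = 0.0108 and 0.0126). The kinases Bub1, Aurka and Cdk1, which act in the spindle checkpoint, at the centrosome and at mitotic entry, averaged -1.39 ± 0.70, -1.29 ± 0.50 and -1.28 ± 0.39. The counts called lower were 21, 5, 6 and 9 without days 1, 2, 3 and 4, and of the 5 genes named 5, 4, 4 and 5 kept their call without days 1, 2, 3 and 4 in turn (adjusted p up to 0.0615 otherwise).

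Promoter sequences were inspected for the words that regulators of these 2 lists are known to bind, because members of each list differed together. The windows ran from 250 bases before to 50 bases after the start of a gene in the RefSeq table of assembly GRCm38.p6, and those printed were placed on NCBIM37 by an exact match. A gene was counted when any of its promoter windows held the word. An E2F-type word (TTTCCCGC, TTTGGCGC, TTTCGCGC or TTTGCCGC on either strand) was present for 14 of 41 matched DNA replication genes (34.1%). The share was 4.71% of 10318 tested genes and 2.6% of all 27025 genes with a promoter window. The CHR word TTTGAA, on either strand, was present for 21 of 29 mitosis genes (72.4%), against 13.9% and 20.2%. It was present for 7 of 41 replication genes (17.1%), and E2F-type words for 1 of 29 mitosis genes (3.45%). Among the called members alone, 14 of 34 replication genes had an E2F-type word and 14 of 20 mitosis genes the CHR word. Whether the words go with the ratios inside a list was not tested. None of the E2F-type words holds TTTGAA or its reverse complement. A match is a description of letters and not a binding site. The promoters of Orc1 (NCBIM37 chr4:108251809-108252108, plus strand), Pole2 (chr12:70329128-70329427, minus strand) and Espl1 (chr15:102126474-102126773, plus strand) are shown 5′ to 3′ because these genes stand among the lowest members of their lists, with the matched word in capitals. The words start at position -27, 10 and -27 from the start of the gene.

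Orc1: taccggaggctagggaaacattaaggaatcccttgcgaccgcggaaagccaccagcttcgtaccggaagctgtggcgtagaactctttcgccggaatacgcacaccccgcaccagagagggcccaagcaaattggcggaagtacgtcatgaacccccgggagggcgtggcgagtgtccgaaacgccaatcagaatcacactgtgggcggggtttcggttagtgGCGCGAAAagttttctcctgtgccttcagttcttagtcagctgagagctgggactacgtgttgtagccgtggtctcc
Pole2: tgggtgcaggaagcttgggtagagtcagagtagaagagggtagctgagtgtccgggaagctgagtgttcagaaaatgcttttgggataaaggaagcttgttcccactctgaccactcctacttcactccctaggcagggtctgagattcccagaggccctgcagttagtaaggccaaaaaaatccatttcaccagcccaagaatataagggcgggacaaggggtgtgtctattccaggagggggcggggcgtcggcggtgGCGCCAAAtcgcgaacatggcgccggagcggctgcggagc
Espl1: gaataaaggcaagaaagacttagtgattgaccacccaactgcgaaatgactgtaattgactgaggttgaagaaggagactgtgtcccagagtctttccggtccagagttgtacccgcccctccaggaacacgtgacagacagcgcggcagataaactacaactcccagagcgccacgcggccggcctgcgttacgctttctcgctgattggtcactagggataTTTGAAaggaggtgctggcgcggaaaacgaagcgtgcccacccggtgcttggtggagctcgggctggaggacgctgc

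Most nucleoporins, which build the nuclear pore, were lower too. Of 29 tested, 23 were called lower and none higher (79.3% and 0% against 20.8% and 21.3% of all genes). The median was -0.70, with day medians of -1.10, -0.60, -0.51 and -0.65 on days 1 to 4. Nup43 had ratios of -1.92, -0.90, -1.36 and -1.15 on days 1 to 4 and a mean of -1.33 ± 0.44 (limma adjusted p = 0.0101). Nup37 and Nup107, further members of the Y-shaped scaffold complex, averaged -1.24 ± 0.46 and -1.07 ± 0.35, the inner ring protein Nup155 -1.13 ± 0.40 and the cytoplasmic filament protein Ranbp2 -1.08 ± 0.40. The counts called lower were 21, 7, 11 and 15 without days 1, 2, 3 and 4. Of the 5 genes named 5, 4, 5 and 5 kept their call without days 1, 2, 3 and 4 in turn (adjusted p up to 0.0536 otherwise).

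Among targets of p53 and inhibitors of cyclin-dependent kinases, 8 of 26 were called lower and 2 higher (30.8% and 7.69% against 20.8% and 21.3% of all genes). The median was -0.10, or -0.025 without day 3. Without days 1, 2, 3 and 4 in turn 2, 2, 1 and 3 were called lower and 2, 1, 2 and 2 higher. Trp53 itself had ratios of -1.54, -0.92, -0.78 and -0.88 on days 1 to 4, with a mean of -1.03 ± 0.35 (limma adjusted p = 0.0112). Pmaip1 (the apoptosis gene NOXA) and Cdkn1c (the inhibitor p57) averaged -1.94 ± 1.14 and -1.37 ± 0.75. The 2 members called higher were Cdkn2c, the inhibitor p18, at 1.27 ± 0.34 and Fas, the death receptor, at 0.88 ± 0.35. Of these 5 genes 4, 3, 3 and 4 kept their call without days 1, 2, 3 and 4 in turn (adjusted p up to 0.0754 otherwise).

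Most lysosomal genes were higher. Of 48 tested, 37 were called higher and 1 lower, against 21.3% and 20.8% of all genes, with a median of 0.61 and day medians of 0.48, 0.54, 0.65 and 0.64 on days 1 to 4. Ctso (Gene ID 229445, chromosome 3, 81736523 to 81760647, plus strand), a cysteine cathepsin, had ratios of 1.29, 1.65, 1.95 and 2.35 on days 1 to 4 and a mean of 1.81 ± 0.45 (limma adjusted p = 0.00745). Smpd1, the acid sphingomyelinase, had ratios of 0.90, 0.96, 1.06 and 1.04 on days 1 to 4, with the narrow mean of 0.99 ± 0.075 (adjusted p = 0.00627). Gm2a (the GM2 activator), Ctsc (cathepsin C) and Npc1 (a cholesterol exporter of late endosomes) averaged 1.497 ± 0.35, 1.36 ± 0.68 and 0.97 ± 0.20. The exception was Manba, the lysosomal beta-mannosidase, at -0.73 ± 0.18. The counts called higher were 29, 17, 23 and 26 without days 1, 2, 3 and 4. Of the 7 genes named, with Ctsd, 6, 4, 5 and 6 kept their call without days 1, 2, 3 and 4 in turn (adjusted p up to 0.0714 otherwise).

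The lysosomal regulator TFEB binds the palindromic core of the CLEAR word, TCACGTGA. This word was present for 6 of 38 matched lysosome genes (15.8%), against 2.16% of the tested genes and 1.12% of all. Among the called lysosome genes alone it was present for 5 of 29. The word was present for 2 of 41 DNA replication genes (4.88%). Ctsd, which encodes the aspartic protease cathepsin D, had ratios of 0.31, 0.59, 0.66 and 0.94 on days 1 to 4 and a mean of 0.62 ± 0.26 (limma adjusted p = 0.0195). Its promoter (chr7:149573683-149573982, minus strand of NCBIM37) is shown as an example of the word, in capitals at position -99. Ctsd and Manba were named after their values were seen.

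Ctsd: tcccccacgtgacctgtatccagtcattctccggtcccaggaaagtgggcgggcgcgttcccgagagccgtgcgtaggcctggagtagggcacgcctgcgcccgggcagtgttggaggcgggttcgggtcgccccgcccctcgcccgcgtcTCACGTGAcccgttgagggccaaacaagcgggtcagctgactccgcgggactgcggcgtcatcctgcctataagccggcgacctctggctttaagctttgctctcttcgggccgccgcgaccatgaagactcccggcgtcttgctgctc

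Genes of glycolysis and the hypoxia response were lower in part. Of 29 tested, 14 were called lower and 2 higher (48.3% and 6.9% against 20.8% and 21.3% of all genes). The median was -0.72, with day medians of -0.11, -0.53, -1.14 and -0.68 on days 1 to 4. The counts called lower in the list were 14, 9, 10 and 11 without days 1, 2, 3 and 4. Slc16a3 (Gene ID 80879, chromosome 11, 120809794 to 120822182, plus strand), the lactate exporter MCT4, had ratios of -3.10, -2.92, -3.17 and -1.21 on days 1 to 4 and a mean of -2.60 ± 0.93 (limma adjusted p = 0.0103). The glucose transporters Slc2a1 and Slc2a3 averaged -1.63 ± 0.34 and -1.82 ± 0.43, lactate dehydrogenase Ldha -1.13 ± 0.53 and the hypoxia-induced Ankrd37 -2.14 ± 0.76. The 2 higher members were Adm (adrenomedullin, itself hypoxia-induced) at 1.83 ± 0.46 and Aldoc (aldolase C), also in the astrocyte list, at 1.45 ± 0.54. Ldha and Aldoc were named after their values were seen. Of these 7 genes 7, 6, 6 and 7 kept their call without days 1, 2, 3 and 4 in turn (adjusted p up to 0.0718 otherwise).

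In the amino acid response driven by ATF4, 8 of 22 were called lower and 1 higher (36.4% and 4.55% against 20.8% and 21.3% of all genes). The median was -0.36, and without days 1, 2, 3 and 4 in turn 6, 4, 5 and 5 were called lower. Slc7a3, a transporter of basic amino acids, had ratios of -2.61, -2.35, -1.97 and -0.86 on days 1 to 4 and a mean of -1.95 ± 0.77 (limma adjusted p = 0.0121). Cth, of cysteine synthesis, and Ddit4, an inhibitor of mTORC1, averaged -1.06 ± 0.58 and -0.97 ± 0.27. Gpt2, an alanine transaminase, was the member called higher at 1.19 ± 0.32. With Mthfd2, 5, 3, 4 and 4 of 5 kept their call without days 1, 2, 3 and 4 in turn (adjusted p up to 0.0806 otherwise).

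Of 23 genes of cholesterol synthesis, 4 were called higher and 3 lower (17.4% and 13% against 21.3% and 20.8% of all genes), with a median of 0.010. Without days 1, 2, 3 and 4 in turn 2, 1, 1 and 1 were called higher and 2, 1, 3 and 2 lower, and the median changed sign without day 1 (-0.089) and without day 2 (-0.025). Srebf2, the master regulator, and Sqle, a synthesis enzyme, averaged -0.52 ± 0.13 and -0.41 ± 0.21, and the enzymes Tm7sf2, Hsd17b7 and Sc5d and the regulator Insig1 1.12 ± 0.17, 0.58 ± 0.18, 0.30 ± 0.11 and 0.49 ± 0.23. Sqle and Sc5d were named after their values were seen. Of these 6 genes 3, 1, 3 and 2 kept their call without days 1, 2, 3 and 4 in turn (adjusted p up to 0.163 otherwise). Of 43 respiratory chain genes, 2 were called higher and 3 lower (4.65% and 6.98% against 21.3% and 20.8% of all genes), with a median of 0.058. The 3 lower genes, Cyc1 at -0.51 ± 0.30, Cox6c at -0.44 ± 0.25 and Ndufb9 at -0.43 ± 0.23, all lie on chromosome 15. The 2 higher genes were Ndufc1 at 0.35 ± 0.15 and Cox6a1 at 0.34 ± 0.092, and none of these 5 calls remained when any one day was left out (adjusted p up to 0.136).

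Signaling pathways that pattern the neural tube were examined next. In the Wnt pathway, 12 of 36 genes were called higher and 6 lower (33.3% and 16.7% against 21.3% and 20.8% of all genes). The list median was 0.32, or 0.11 without day 2 and 0.076 without day 4, and without days 1, 2, 3 and 4 in turn 7, 7, 7 and 10 were called higher and 5, 5, 4 and 6 lower. Sfrp2, a secreted Wnt inhibitor, had ratios of -3.86, -1.57, -2.54 and -2.39 on days 1 to 4, and Wnt3, a dorsal ligand, -1.83, -2.38, -1.52 and -1.74 on days 1 to 4. Their means were -2.59 ± 0.95 and -1.87 ± 0.36 (limma adjusted p = 0.0107 and 0.00627). The receptor Fzd10 and the nuclear effector Tcf7 were lower at -2.05 ± 0.52 and -1.55 ± 0.42, and the noncanonical ligand Wnt5b was higher at 1.59 ± 0.52. All 5 kept their call without any one day.

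In the BMP and TGF-beta pathway 16 of 39 genes were called higher and 6 lower (41% and 15.4% against 21.3% and 20.8% of all genes). The median was 0.50, or 0.098 over the well expressed members, and without days 1, 2, 3 and 4 in turn 14, 4, 6 and 8 were called higher and 3, 1, 1 and 2 lower. Fst, the activin inhibitor follistatin, had ratios of -2.45, -2.54, -2.23 and -2.90 on days 1 to 4 and a mean of -2.53 ± 0.28 (limma adjusted p = 0.00601). The ligand Nodal and the receptor Acvr2b were lower at -3.90 ± 2.81 and -1.81 ± 1.16, and the ligands Bmp5 and Tgfb2 and the effector Smad9 were higher at 1.75 ± 0.93, 0.94 ± 0.040 and 1.39 ± 0.89. Tgfb2 lay between 0.89 and 0.99 on the 4 days. Of these 6 genes 5, 2, 2 and 3 kept their call without days 1, 2, 3 and 4 in turn (adjusted p up to 0.132 otherwise).

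In the Notch pathway 8 of 27 genes were called higher and 5 lower (29.6% and 18.5% against 21.3% and 20.8% of all genes). The list median was 0.19, or 0.064 without day 1, and without days 1, 2, 3 and 4 in turn 6, 2, 5 and 7 were called higher and 4, 1, 2 and 3 lower. Jag2, a ligand, had ratios of -1.75, -1.88, -1.53 and -1.23 on days 1 to 4 and a mean of -1.60 ± 0.28 (limma adjusted p = 0.00627). The Notch glycosyltransferase Lfng and the target Hey1 were higher at 1.52 ± 0.66 and 1.36 ± 0.45, as were the ligand-like Dner at 1.11 ± 0.57, the coactivator Maml2 at 1.07 ± 0.090 and the receptor Notch2 at 0.62 ± 0.25. The targets Heyl and Hes5 were lower at -1.95 ± 1.15 and -0.59 ± 0.16, as were Dtx4 at -0.47 ± 0.21 and the DNA-binding effector Rbpj at -0.55 ± 0.32, the last named after its value was seen. With Notch1, 9, 3, 6 and 9 of 11 kept their call without days 1, 2, 3 and 4 in turn (adjusted p up to 0.125 otherwise).

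Of 25 genes of FGF signaling and its feedback, 7 were called higher and 3 lower (28% and 12% against 21.3% and 20.8% of all genes). The median was 0.29, or 0.15 without day 2, and without days 1, 2, 3 and 4 in turn 4, 2, 5 and 4 were called higher and 3, 2, 2 and 2 lower. Fgf15, a ligand of the early neural tube, had ratios of -3.80, -2.50, -2.93 and -2.30 on days 1 to 4 and a mean of -2.88 ± 0.67 (limma adjusted p = 0.00665). The receptor Fgfr4 had ratios of -0.56, -3.73, -3.72 and -2.04 on days 1 to 4, closest to the control on day 1, and averaged -2.51 ± 1.52. The immediate early gene Fos and the kinase Mapk3 were higher at 1.98 ± 0.80 and 0.39 ± 0.14. With Fgfr3 and Fgf5, 5, 3, 4 and 4 of 6 kept their call without days 1, 2, 3 and 4 in turn (adjusted p up to 0.108 otherwise).

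Of 19 tested genes of retinoic acid handling and the Hox clusters, 2 were called lower and 1 higher. These shares, 10.5% and 5.26%, lay below the 20.8% and 21.3% of all genes. The median was -0.71, -1.13 over the well expressed members and -0.42 without day 2. Without days 1, 2, 3 and 4 in turn 2, 2, 2 and 2 were called lower and 0, 0, 1 and 0 higher. Cyp26b1 (Gene ID 232174, chromosome 6, 84521938 to 84543740, minus strand), which degrades retinoic acid, had ratios of -2.01, -3.72, -3.20 and -3.91 on days 1 to 4 and a mean of -3.21 ± 0.86 (limma adjusted p = 0.00745). Crabp1, a binding protein, stood at -1.74 ± 0.55. Both kept their call when any one day was left out.

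Of 12 tested midbrain and dopaminergic genes, 0 were called higher and 3 lower (0% and 25% against 21.3% and 20.8% of all genes). The median was -0.38, but -0.031 without day 1. The floor plate genes Lmx1a, Foxa1 and Shh, called higher above, were not in this list, whose highest tested member stood at 0.90. Gbx2, a factor of the anterior hindbrain, had ratios of -1.81, -2.24, -0.88 and -1.21 on days 1 to 4 and a mean of -1.53 ± 0.61 (limma adjusted p = 0.0125). En2, of the midbrain-hindbrain region, and Pax8 averaged -0.74 ± 0.39 and -0.68 ± 0.34. Of these 3 genes 2, 1, 1 and 2 kept their call without days 1, 2, 3 and 4 in turn (adjusted p up to 0.0946 otherwise).

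Among 19 glutamate receptor genes, 7 were called higher and 2 lower (36.8% and 10.5% against 21.3% and 20.8% of all genes). The median was 0.068, or 0.52 over the well expressed members and 0.36 without day 2. Without days 1, 2, 3 and 4 in turn 5, 4, 4 and 5 were called higher and 1, 0, 1 and 2 lower. Grm5, a metabotropic receptor, had ratios of 2.03, 2.53, 2.35 and 1.64 on days 1 to 4 and a mean of 2.14 ± 0.39 (limma adjusted p = 0.00627). The ionotropic subunits Grin3a, Gria2 and Gria1 were higher at 1.70 ± 0.31, 1.60 ± 0.39 and 1.37 ± 0.95, and Grm2 and Grm8 were lower at -3.30 ± 1.98 and -0.63 ± 0.17. Grm8 was named after its value was seen. Of these 6 genes 5, 3, 4 and 5 kept their call without days 1, 2, 3 and 4 in turn (adjusted p up to 0.102 otherwise).

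Of 33 genes of DNA methylation and imprinting, 10 were called lower and 4 higher (30.3% and 12.1% against 20.8% and 21.3% of all genes). The median was -0.25, or -0.15 without day 3. Without days 1, 2, 3 and 4 in turn 6, 2, 4 and 7 were called lower and 1, 1, 2 and 2 higher. Tet1, which oxidizes methylcytosine, had ratios of -3.54, -2.19, -1.16 and -1.47 on days 1 to 4 and a mean of -2.09 ± 1.06 (limma adjusted p = 0.0192). The imprinted growth factor Igf2 and the imprinted zinc finger gene Zim1 averaged -2.20 ± 1.56 and -1.83 ± 0.96, with Igf2 at -0.0024 on day 4. The 4 called higher were all imprinted, Peg3 at 1.61 ± 0.96, Nap1l5 at 1.37 ± 0.49, Kcnq1ot1 at 1.28 ± 0.87 and Sgce at 0.35 ± 0.15. Nap1l5, Kcnq1ot1 and Sgce were named after their values were seen. Of these 7 genes 3, 1, 4 and 4 kept their call without days 1, 2, 3 and 4 in turn (adjusted p up to 0.135 otherwise).

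Of 16 tested interferon-stimulated genes, 7 were called higher and 1 lower (43.8% and 6.25% against 21.3% and 20.8% of all genes). The median was 0.58, or 0.25 over the well expressed members. Without days 1, 2, 3 and 4 in turn 6, 2, 4 and 5 were called higher. The RNA sensors Ddx58 and Ifih1 averaged 1.35 ± 0.47 and 1.33 ± 0.36, and the antigen presentation genes B2m and H2-D1 0.97 ± 0.41 and 0.97 ± 0.41. Ifih1 had ratios of 1.29, 1.07, 1.10 and 1.85 on days 1 to 4 (limma adjusted p = 0.00821). Bst2 (tetherin) was the member called lower at -0.98 ± 0.61. Of these 5 genes 4, 1, 3 and 4 kept their call without days 1, 2, 3 and 4 in turn (adjusted p up to 0.11 otherwise).

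The lowest genes included some outside these lists. Usp26 (Gene ID 83563, chromosome X, 49107136 to 49154410, minus strand), a deubiquitinase, had ratios of -8.11, -4.89, -6.37 and -4.07 on days 1 to 4 and a mean of -5.86 ± 1.78 (limma adjusted p = 0.00817). Robo3, an axon guidance receptor of commissural neurons, had ratios of -3.73, -4.62, -4.79 and -3.62 on days 1 to 4, with a mean of -4.19 ± 0.60 (adjusted p = 0.00626). Trh, the thyrotropin-releasing hormone gene, had ratios of -8.31, -3.66, -2.82 and -1.98 on days 1 to 4, with day 1 far below the others, and averaged -4.19 ± 2.83 (adjusted p = 0.0363). Usp26 and Robo3 kept their call without any one day, and Trh only without day 1 (adjusted p up to 0.101 otherwise).

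Markers of cells other than neural ones were examined because the cultures had been started on feeder cells. Of 26 tested fibroblast markers, 4 were called higher and 1 lower, below the 21.3% and 20.8% of all genes, with a median of 0.13 and day medians of -0.038, -0.31, 0.18 and 0.78 on days 1 to 4. Without day 4 the median was -0.10. The higher genes were the mesenchymal factors Twist2 and Twist1 at 1.74 ± 0.43 and 0.68 ± 0.45, the collagen Col5a1 at 1.06 ± 0.50 and the matrix gene Fbn1 at 1.05 ± 0.078, and the lower gene was Postn (periostin) at -0.84 ± 0.27. Of endoderm markers 3 of 10 were called higher (Cubn, Rbp4 and Lama1, at 1.11 ± 0.65, 1.03 ± 0.67 and 0.87 ± 0.55) and 3 lower (Gata4, Gata6 and Cxcr4, at -2.07 ± 0.81, -1.39 ± 0.95 and -0.96 ± 0.37). These were 30% and 30% of the endoderm markers, against 21.3% and 20.8% of all genes. The endoderm median was 0.46, and -0.042 over its 4 well expressed members. Of endothelial markers, with a median of -0.80 (-0.068 without day 1), 2 of 11 were called higher (Kdr at 1.41 ± 0.46 and Plvap at 1.07 ± 0.47) and 4 lower (Clec14a at -2.14 ± 1.59, Eng at -1.97 ± 0.62, Vwf at -1.37 ± 0.78 and Egfl7 at -1.29 ± 0.34). The endothelial shares were 18.2% higher and 36.4% lower. Plvap was named after its value was seen. Of 20 blood and microglia markers 9 had no reads in the tables and only Cd68 passed the filter, at 0.12 ± 0.62 and not called (limma adjusted p = 0.71). Without days 1, 2, 3 and 4 in turn, 4, 2, 3 and 4 of the 5 fibroblast calls, 4, 3, 2 and 2 of the 6 endoderm calls and 5, 3, 4 and 4 of the 6 endothelial calls remained. The part of such cells in the results above was not tested.

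Genes that the study itself had singled out from these libraries are not independent evidence of a direction. Of 21 tested, 8 were called higher and 7 lower (38.1% and 33.3% against 21.3% and 20.8% of all genes). Those called higher included Lfng, Notch2, Maml2 and Tgfb2, and those called lower Jag2, Dtx4 and Cxcr4, with the values given above. Cxcl12, a chemokine, had ratios of 0.14, 1.14, 0.99 and 2.88 on days 1 to 4 and was not called (mean 1.29 ± 1.15, limma adjusted p = 0.0749). Tgfbr1, a TGF-beta receptor, averaged -0.35 ± 0.53 (adjusted p = 0.245), and the ligand Tgfb3 0.66 ± 1.03 (adjusted p = 0.242) with 2.21 on day 4.

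The early difference was then set against that of days 8, 10, 12 and 14, since both lines continued toward neurons. The ratio of the 4 early days differed from that of the 4 late days for 316 of 13254 genes (limma, 2.38%), 199 with a higher and 117 with a lower early ratio. The count was 6 without day 1, 2 without day 2, 272 without day 3, 88 without day 4, 1220 without day 8, 6 without day 10, 1 without day 12 and 65 without day 14. Tgm2 (Gene ID 21817, chromosome 2, 157942138 to 157972172, minus strand), tissue transglutaminase, had early ratios of 2.33, 2.21, 2.12 and 3.52 on days 1 to 4 and late ratios of -0.038, -1.15, -0.98 and -1.14 on days 8, 10, 12 and 14. The early mean exceeded the late mean by 3.37 (adjusted p = 0.0201). Cacna2d3 (a calcium channel subunit), Disp2, C1qtnf4, Mab21l2 and the imprinted Zim1 also had a higher early ratio, by 3.02, 2.70, 2.64, 2.80 and 3.36.

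Oligodendrocyte genes led the opposite direction. Sox10 averaged -0.34 ± 1.87 on days 1 to 4 and 4.97 on days 8 to 14, a difference of -5.30 (limma adjusted p = 0.0434). Gpr17 differed by -5.31 (adjusted p = 0.0351), and its late ratios were 4.39, 6.87, 5.59 and 6.65 on days 8, 10, 12 and 14. Both genes were high on day 3 and on all late days, and at or below the control on days 1, 2 and 4. Serpina3n, a protease inhibitor of reactive astrocytes, Pnpla3, the kinase Pim2 and Snx22 differed by -3.85, -3.43, -2.72 and -2.55. Mbp, 0.16 ± 2.86 early and 5.27 late, did not pass the test (adjusted p = 0.0852). The oligodendrocyte list had a late median of 4.17 against 0.67 early, and the ventral list 1.76 against 2.14.

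**Figure D4:**
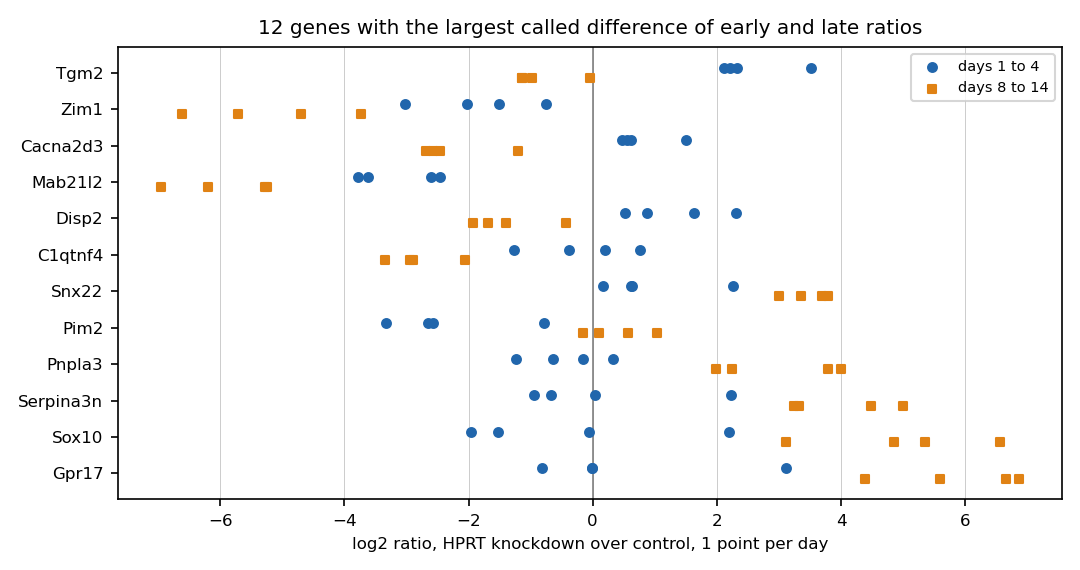
Log2 ratio (HPRT knockdown over control) of each of days 1 to 4 (blue circles) and of each of days 8, 10, 12 and 14 (orange squares) for the 12 genes named for the difference between early and late ratios, 1 point per day. The circles and squares of a gene do not overlap for any of the 12 genes, which were chosen for this difference, and the rightmost circle of Gpr17, at 3.11, is that of day 3.

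Against the single pair of day 0, no gene differed (0 of 13254 by limma, 0%), with 1880 at an unadjusted p under 0.05. Day 0 was 1 pair, assumed to vary like the others. The ventral list had stood at 2.56 on day 0, the mesoderm and muscle list at 1.22 and the DNA replication list at -1.01. Nor did any gene pass the test of a slope of the ratio over days 1 to 4 (0 of 13254 by limma, 0%, with 1398 at an unadjusted p under 0.05). The steepest slopes were those of the pluripotency genes Utf1, Tdh and L1td1, at 2.61, 2.26 and 2.18 per day on the log2 scale, and of Gad1 (GABA synthesis), Pak6 and Pnoc (a neuropeptide precursor), at -1.395, -1.26 and -1.24. Utf1 had ratios of -8.31, -2.89, -1.07 and -0.22 on days 1 to 4 (adjusted p of the slope = 0.339), and Gad1 had ratios of 3.36, -0.19, -1.79 and -0.76 on days 1 to 4 (adjusted p = 0.476).

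By chromosome, the genes of chromosome 15 were lower as a group. Their median ratio was -0.38 over 506 tested genes, whereas those of the other chromosomes lay between -0.10 and 0.07. Of the 506 genes, 214 were called lower (42.3%) and 39 higher (7.71%), and 71.5% had a mean ratio below 0. The daily medians were -0.34, -0.43, -0.18 and -0.55 on days 1 to 4, after -0.38 on day 0, and -0.024, -0.36, -0.17, -0.095 and -0.11 on days 6, 8, 10, 12 and 14. In 10 of 11 intervals of 10 megabases along the chromosome the median was below 0. Of the genes named as lower above, Adsl, Espl1, Nup155, Srebf2, Sqle, Cyc1, Cox6c and Ndufb9 are on this chromosome, as are Dhh and Dbx2, which were higher. The cause was not tested.

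**Figure D5:**
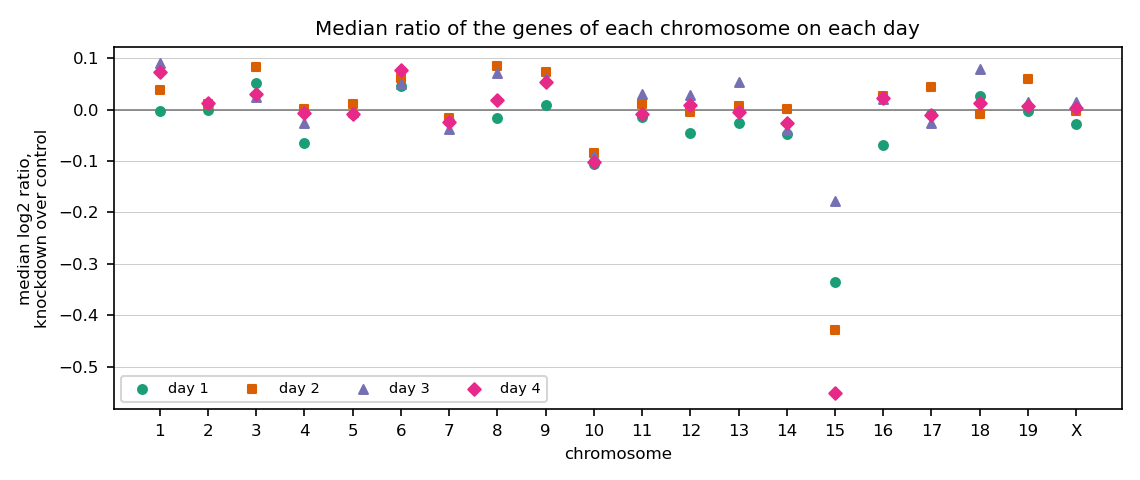
Median log2 ratio (HPRT knockdown over control) of the tested genes of each chromosome on days 1 to 4 (colored symbols). Chromosome 15 lies below the others, with day medians between -0.55 and -0.18.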

How the data were processed

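Total RNA of both lines was sequenced on an Illumina HiSeq 2000 for 50 cycles. Per the study's methods, the authors aligned the reads to the NCBI37/mm9 mouse genome with ELAND in CASAVA 1.8.2, and normalized counts with DESeq in Avadis NGS. The deposited values are on a log2 scale with the mean of the pair of libraries in each table subtracted, as read from the values themselves. Of 28 deposited tables, a set of 16 was used here. Each holds 2 libraries and was normalized on its own, so values joined across tables compare separately scaled libraries. Which lane held which library is not given in the sources used here. Read totals were not used, so library depth was unknown.

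Per-day ratios were the knockdown value minus the control value of 1 table. A gene was tested when at most 4 of the 10 tables made only of these 8 libraries had a rounding step finer than that of a log2 count of 4. Ratios were tested with limma 3.58.1 in R 4.3.3 (intercept only, two-sided, Benjamini-Hochberg threshold 0.05), and tables were prepared with Python 3.11.15. Scripts were tested on simulated data. Days of a line are successive collections, so p-values measure the spread over days only. Both lines of a day share a table and the labelled day, and same-day deviations correlated at 0.33, 0.077, 0.017 and 0.36 on days 1, 2, 3 and 4. The pairing therefore rests on the shared day. The labels call the cultures independently replicated, whereas the methods describe pooled RNA.

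Genes named were Hprt, the 12 highest and 12 lowest called mean ratios of the same sign on 4 days with tables agreeing within 0.1, up to 5 called members of each of 36 lists (the 3 largest where under 3 were called), the genes the study names, 6 genes in each direction of the early against late comparison, the 3 steepest slopes in each direction and 4 markers of other cell types, leaving out predicted genes and small RNAs. Some of the genes chosen are not reported here. Members and lists were chosen with earlier results of these data known. Columns of both lines were mapped by name, and day 6 was left out because the study treated it as discrepant. Alternatives were other filters, scalings, variance priors, days, tables and an unpaired fit.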

Additional observations from a re-analysis of the deposited data

Results flagged for a closer look

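Among the 36 gene lists, 5 had a day whose median lay far from the other 3 days, and among 243 genes chosen for naming 19 did, where chance gives about 1 in 20 groups. The list medians were -0.93 for primed epiblast and 0.11 for proneural factors on day 4, 0.40 for FGF signaling and 0.037 for folate genes on day 2, and -1.49 for mitosis on day 1. Genes of growth and division stood apart on day 1, with log2 ratios of -1.97 for Ppat, -2.41 for Mcm10, -1.91 for Mcm3, -2.43 for Bub1 and -1.93 for Nup37, as did the calcium channel gene Cacna2d3 at 1.51. On day 4 the ratios farthest from the other days were 5.92 for Car3, 4.95 for Itih2, 3.52 for Tgm2, 2.21 for Tgfb3 and 1.88 for Nt5e on the high side and -2.44 for Pax6 on the low side. On the same day Mylpf at -0.75, Slc16a3 at -1.21, Hes5 at -0.34, Rbpj at -0.079 and Pou3f1 at -0.054 lay nearer to 0 than on the other days. Slc2a3 stood apart on day 2 at -2.46 and Mbp on day 3 at 4.42. The part of single libraries in these values was not tested.

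The early ratio differed from the late ratio for 316 genes in the limma test of the difference itself. The early minus late difference was 3.37 for Tgm2, 3.36 for Zim1, 3.02 for Cacna2d3, 2.80 for Mab21l2, 2.70 for Disp2 and 2.64 for C1qtnf4. In the other direction it was -5.31 for Gpr17, -5.30 for Sox10, -3.85 for Serpina3n, -3.43 for Pnpla3, -2.72 for Pim2 and -2.55 for Snx22.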

How the results depend on the processing

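The 5578 calls of days 1 to 4 ranged from 1946 to 4057 when single days were left out, and 1818 genes were at least 1.5-fold apart on each day without any test. With no replicate block, a fit that ignores the pairing by day called 5283 genes, within 1.5 times the paired count. Other filters, scalings, priors and tables gave between 4365 and 5945 calls. The filters changed the number of genes tested, which was 13254 in the main fit. The 4365 calls were among the 8038 well expressed genes, and 4873 of 18325 genes were called with no filter. Leaving out chromosome 15 gave 5321 calls among 12748 genes. The last of these, a fit on genes whose tables agree (5511) and an unpaired fit by way of the knockdown tables (5257) were chosen after seeing the data. The 316 early against late calls ranged from 1 to 1220 without single days, and were 117 with no filter, 553 with a variance trend and 164 with day 6 kept. Against day 0, 24 genes were called with no filter and 0 otherwise, and no setting gave a called slope. At least 2-fold differences were held by 2980, 2114, 2160 and 1958 genes on days 1, 2, 3 and 4, and at least 1.5-fold ones by 3168, 2081, 2193 and 2246 of the well expressed genes. Among those genes the medians of the proneural and of the mesoderm and muscle lists had the opposite sign, 0.188 and 1.15, over the few members left, as did that of the endoderm list at -0.0419, within its spread over days, and 7 other list medians moved by more than their spread over days. Of 223 called genes that were chosen for naming, 165, 104, 133 and 174 kept their call without days 1, 2, 3 and 4, and the cause was not tested. All 223 were called after centering each day. No pseudocount could be varied, since only ratios are given, and unknown depth limits what can be said of weakly expressed genes.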
